A study of Homo sapiens with 36 samples.

Results

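The TRIM family, one of the largest families of RING ubiquitin ligases, was followed in HCT116 cells after loss of the DNA methylation factors UHRF1, DNMT1 or both. Members were all protein-coding genes of GENCODE release 44 whose symbol is TRIM followed by a number and at most 1 letter, with TRIM28 left out. The rule used names only and no measured value, though the family was chosen with earlier results of these data known. It gave 72 of 19942 protein-coding genes, and all 72 were found in the count files by Ensembl identifier. In all, 56 of the 72 had enough reads to be tested, among 15415 protein-coding genes tested, and the other 16 were below the limit on low counts.

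HCT116 is a human colorectal carcinoma line. Poly(A) RNA was sequenced from 4 lines: UHRF1-AID/DNMT1-AID, UHRF1-AID and DNMT1-AID cells, in which each named protein carries an auxin-inducible degron tag, and WT cells without a tagged protein. Every line, WT included, expresses the plant ubiquitin ligase adaptor OsTIR1 from a doxycycline-inducible promoter, and every line received the same treatment: 1 day of doxycycline (2 µg/mL) with the OsTIR1 inhibitor auxinole (20 µM), then doxycycline with auxin (500 µM) for 2, 6 or 8 days. Each of the 12 groups of line and day had 3 libraries, which made 36. The study calls the libraries of a group biological replicates and describes its AID lines as generally represented by several clones. Which clone each library came from is not given in the sources used here.

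TRIM proteins share an N-terminal tripartite motif made of a RING domain, B-box zinc fingers and a coiled coil. The RING domain recruits a ubiquitin-loaded E2 enzyme, the coiled coil builds dimers, and a variable C-terminal domain, most often PRY-SPRY, picks the substrate. Several members are induced by interferon and restrict viruses or tune RNA sensing, others act on microtubules, in muscle or on chromatin, and a set is expressed mainly in testis or early embryo. UHRF1 recognises hemimethylated DNA after replication and recruits DNMT1, the maintenance DNA methyltransferase.

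Total counts per library ran from 21074536 to 37175136, with a median of 25031562.5, and protein-coding genes took 90.22% to 92.83% of them. Correlations of log2 CPM between libraries of 1 group lay between 0.98 and 0.995. CPM here is the read count scaled in the usual way to the TMM-adjusted library size, and a gene is called higher or lower when edgeR's quasi-likelihood test over all 15415 genes gave a Benjamini-Hochberg adjusted p under 0.05. The degron acts on protein, so the transcripts of UHRF1 and DNMT1 do not check the labels. Marker lists also moved in UHRF1-AID/DNMT1-AID against WT on day 8. Of 7 epithelial markers 4 were higher and 1, VIL1, lower, and their summed level was 7551 to 9522 CPM in UHRF1-AID/DNMT1-AID and 5803 to 5892 CPM in WT. Leukocyte markers summed to 4.13 to 5.60 CPM in UHRF1-AID/DNMT1-AID and 0.0675 to 0.320 CPM in WT, with all 3 tested of 5 higher. Endothelial markers summed to 2.74 to 3.78 CPM in UHRF1-AID/DNMT1-AID and 0.641 to 1.12 CPM in WT, with 1 of 2 tested higher and CDH5 at 0 in WT. Fibroblast markers summed to 33.7 to 45.8 CPM in UHRF1-AID/DNMT1-AID and 19.5 to 23.6 CPM in WT, mostly COL1A1, with both tested of 4 higher and COL1A2 at 0 in WT. The leukocyte markers, CDH5 and COL1A2 were at or near 0 in WT and could only be called higher. Of all genes tested, 35.7% were higher and 32.8% lower in this comparison. The part of these markers in the results was not tested. In bulk RNA, fewer cells with a transcript and less transcript per cell cannot be told apart. Since the sources used here do not say whether these biological replicates were separate clones or separate cultures of 1 clone, differences between lines and between clones may not be told apart.

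Per kilobase of exon, the member with the highest level in WT cells on day 8 was TRIM14, an adaptor of the antiviral protein MAVS, at 26.18 CPM per kb. TRIM21, the cytosolic antibody receptor, followed at 24.22 CPM per kb, and TRIM47 stood at 23.78 CPM per kb. In UHRF1-AID/DNMT1-AID cells on day 8 the order was TRIM21 at 76.69, TRIM47 at 40.31 and TRIM14 at 29.27 CPM per kb. At the other end, 20 members had no read in any of the 3 WT libraries of day 8, and 9 more averaged under 1 CPM. No read was found in any of the 36 libraries for TRIM42, TRIM48, TRIM51G, TRIM64B, TRIM64C and TRIM77.

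The family as a whole moved about as often as other genes, in both directions. On day 8, 17 members were higher and 19 lower in UHRF1-AID/DNMT1-AID than in WT, so that 64.3% of the tested members were called, against 68.5% of all genes tested (35.7% higher and 32.8% lower). In UHRF1-AID cells 14 were higher and 10 lower, and in DNMT1-AID cells 12 were higher and 12 lower. These are 42.9% of the members in each line, against 45.3% of all genes for UHRF1-AID (24.2% higher, 21% lower) and 47.5% for DNMT1-AID cells (25.1% higher, 22.4% lower). With scaling by library size alone, the counts on day 8 became 11 higher and 13 lower in UHRF1-AID and 7 higher and 19 lower in DNMT1-AID.

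Day 2 had fewer calls. There, 7 members were higher and 6 lower in UHRF1-AID cells (of all genes 12.1% were higher and 14.4% lower, 26.5% in all). DNMT1-AID cells had 3 higher and 0 lower (2.67% and 0.714% of all genes, 3.38% in all), and UHRF1-AID/DNMT1-AID cells had 11 higher and 8 lower (16.3% and 11.5% of all genes, 27.8% in all). At an unadjusted p under 0.05 edgeR had 1 member lower in DNMT1-AID cells, and DESeq2 called 0. The higher count in UHRF1-AID was 4 without WT replicate 1 or without UHRF1-AID replicate 2. The DNMT1-AID count was 1 higher without WT replicate 1 or without WT replicate 3, and the lower count of UHRF1-AID/DNMT1-AID was 5 without WT replicate 1 or without its own replicate 3. By day 6 the counts were 8 higher and 4 lower in UHRF1-AID (14.3% and 10.5% of all genes, 24.7% in all), 6 higher and 1 lower in DNMT1-AID (8.84% and 4.35%, 13.2% in all), and 15 higher and 13 lower in UHRF1-AID/DNMT1-AID (19% and 21.9%, 40.9% in all). The 4 lower in UHRF1-AID became 2 without WT replicate 1, WT replicate 2 or UHRF1-AID replicate 3, and the 1 in DNMT1-AID became 0 without WT replicate 1 or 3 or DNMT1-AID replicate 2 or 3. With library size alone, day 2 had 8 higher and 15 lower in UHRF1-AID/DNMT1-AID and 1 higher and 1 lower in DNMT1-AID, and day 6 had 8 higher and 2 lower in UHRF1-AID and 4 higher and 2 lower in DNMT1-AID. After correction for GC content and length, day 2 had 9 higher and 10 lower in UHRF1-AID/DNMT1-AID, and day 6 had 10 higher and 9 lower in UHRF1-AID and 7 higher and 3 lower in DNMT1-AID. In no comparison with WT did the members' median log2 fold change leave the range from -0.066 to 0.079. Over all genes tested, the corresponding medians lay between -0.05 and 0.035.

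**Figure D1:**
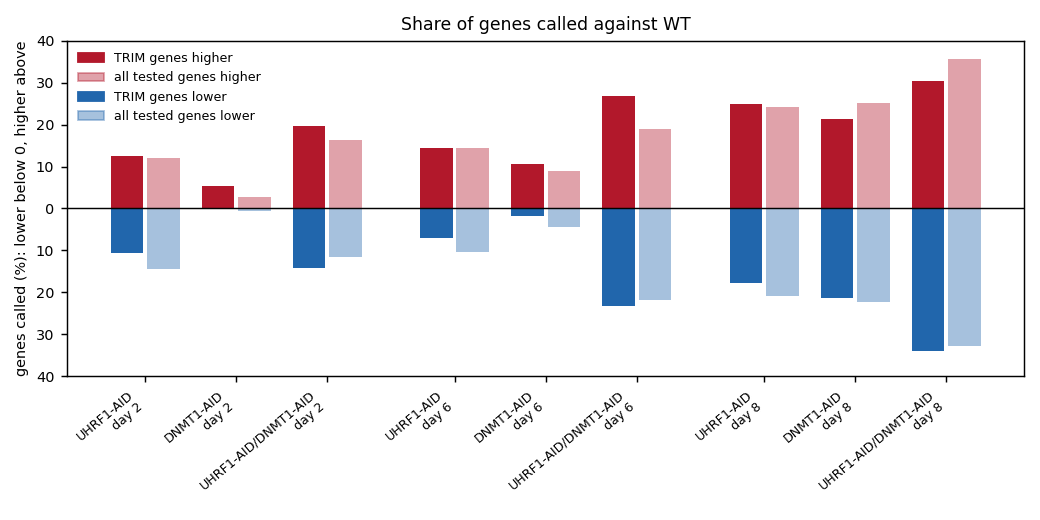
Share of genes called higher (above 0) and lower (below 0), in percent, in each degron line against WT on days 2, 6 and 8. Dark bars are the 56 tested TRIM genes and pale bars all 15415 tested genes; on day 8 the members called in UHRF1-AID/DNMT1-AID cells make up 64.3% against 68.5% of all genes.

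Over the 9 comparisons of a degron line with WT, 12 of the 56 tested members were never called. Another 17 were higher in at least 1 comparison and lower in none, 21 were lower in at least 1 and higher in none, and 6 had calls in both directions. On day 8, 9 members were higher in all 3 degron lines (TRIM21, TRIM22, TRIM29, TRIM43, TRIM47, TRIM50, TRIM55, TRIM61 and TRIM69) and 9 were lower in all 3 (TRIM7, TRIM23, TRIM25, TRIM33, TRIM36, TRIM37, TRIM41, TRIM59 and TRIM72). Of all genes, 15.9% were higher and 14.6% lower in all 3, so neither count stands out. TRIM29, TRIM43, TRIM50 and TRIM61 passed the limit on low counts only through degron libraries and could only be called higher. The 3 lines share the same WT libraries in these comparisons. Only TRIM55 was higher in all 9 comparisons, as were 1.08% of all genes.

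**Figure D2:**
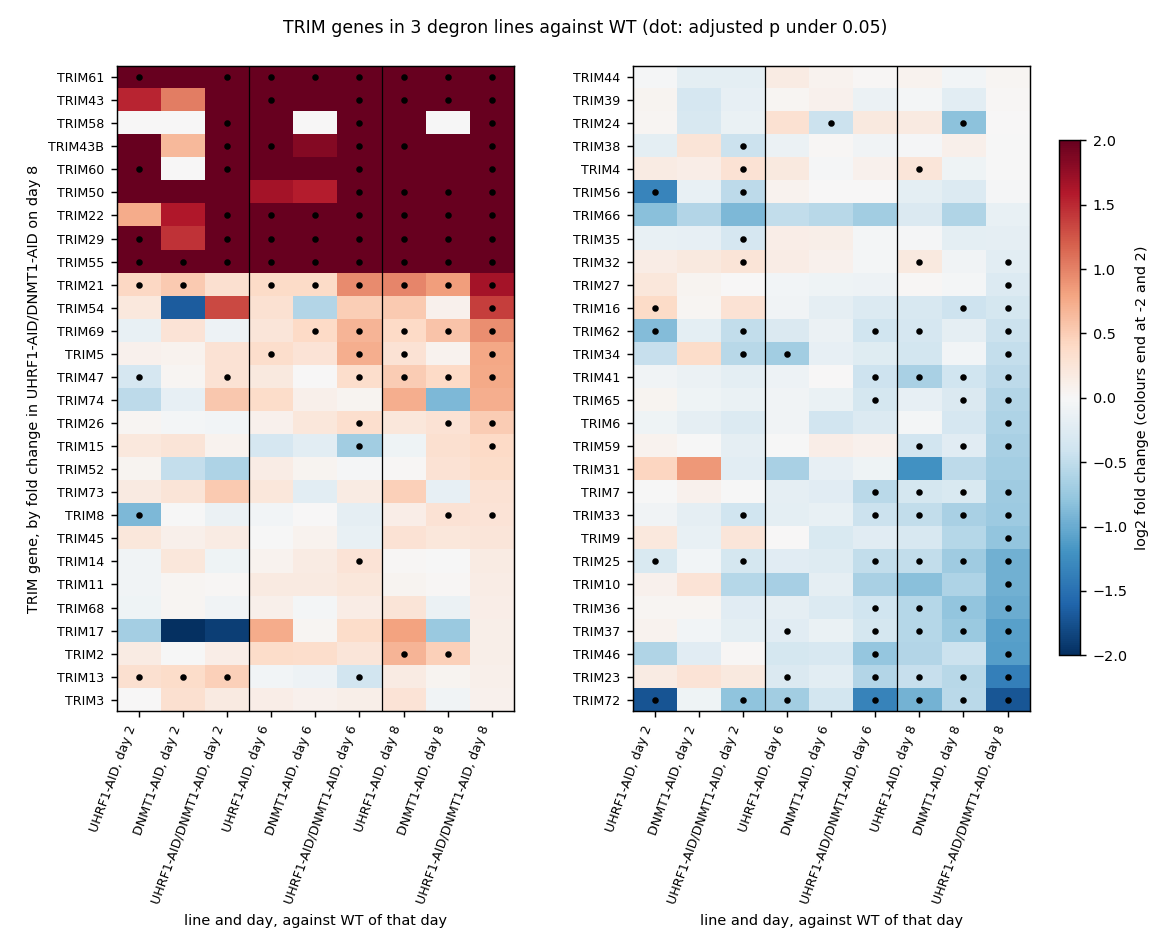
Log2 fold change against WT (colour, ending at -2 and 2) of the 56 tested TRIM genes in each degron line on days 2, 6 and 8. Dots mark adjusted p under 0.05, and genes with no read in both groups are at 0. TRIM61, TRIM58, TRIM22, TRIM29 and TRIM55 stand out as higher, and TRIM72, TRIM23 and TRIM37 as lower in UHRF1-AID/DNMT1-AID cells on day 8.

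The members with the highest fold changes were silent or nearly silent in WT cells. TRIM61, TRIM60, TRIM58, TRIM43, TRIM43B and TRIM50 had no read in the 3 WT libraries of day 8. These 6, with TRIM29 and TRIM17, passed the limit on low counts only through degron libraries. The number of them called higher, the direction of their calls and any lack of overlap with WT therefore support nothing. TRIM17 was not called in any of the 9 comparisons with WT. On the 48 members that pass on the WT libraries alone, 10 were higher and 19 lower in UHRF1-AID/DNMT1-AID cells on day 8, or 60.4%, against 67% of the 13848 genes that pass in the same way.

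TRIM61, which has no recognised C-terminal domain, and TRIM60, a PRY-SPRY member, lie near each other on chromosome 4 (GRCh38, TRIM61 at chr4:164954446-164977668 on the minus strand and TRIM60 at chr4:165016458-165041749 on the plus strand). On day 8 TRIM61 read 4.23, 2.27 and 3.42 CPM in UHRF1-AID/DNMT1-AID, 0.779, 0.991 and 1.17 CPM in UHRF1-AID and 0.546, 0.300 and 0.458 CPM in DNMT1-AID libraries, against 0 in every WT library of every day. No degron line overlapped WT on day 8, which supports nothing for a gene that passed the limit only through degron libraries. The double degron lay above both single degrons. Against a floor of 3 reads over the 3 WT libraries, TRIM61 was at least 79.9-fold higher in UHRF1-AID/DNMT1-AID (adjusted p = 5.85e-12), at least 24.2-fold higher in UHRF1-AID (adjusted p = 3.08e-08) and at least 11-fold higher in DNMT1-AID cells (adjusted p = 4.82e-06). It was already higher on day 2 in UHRF1-AID/DNMT1-AID, with 2.41, 2.40 and 1.49 CPM, and in UHRF1-AID, with 0.682, 0.558 and 0.596 CPM. DNMT1-AID libraries held only 2 reads of TRIM61 in all on day 2, and the call came on day 6 (adjusted p = 0.00116).

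TRIM60 was higher in the double degron on all 3 days, with 26 reads on day 2 and 93 on day 6 against 0 in WT. In UHRF1-AID it was called on day 2, with 11 reads against 0 in WT (at least 2.90-fold, adjusted p = 0.0424), a call lost without any 1 of the WT libraries and without UHRF1-AID replicate 2 or 3. On day 8 the call was made only in the double degron. Its libraries there read 1.43, 0.546 and 2.70 CPM, against 0 in WT, and UHRF1-AID and DNMT1-AID libraries together held 8 reads, 4 in each line. The difference was at least 38.9-fold (adjusted p = 4.47e-07). UHRF1-AID/DNMT1-AID was also higher than UHRF1-AID (adjusted p = 9.95e-06) and than DNMT1-AID cells (adjusted p = 1.42e-05). TRIM75, the next neighbour on chromosome 4, had 9 reads in all 36 libraries and was not tested.

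TRIM58 is a PRY-SPRY ligase known from red cell maturation, where it acts on dynein, and its promoter is known to be methylated in many colorectal tumours. On day 8 it read 1.43, 2.06 and 3.58 CPM in UHRF1-AID/DNMT1-AID libraries, against 0 in all 3 WT libraries. Day 2 had 1.09, 1.35 and 0.992 CPM and day 6 had 2.64, 2.77 and 3.54 CPM in the double degron. No read fell on TRIM58 in any DNMT1-AID or WT library of any day, which allows up to 0.0395 CPM in DNMT1-AID and 0.0407 CPM in WT on day 8 (3 reads over the group), and UHRF1-AID had 3 reads on day 6 and 3 on day 8, each time in 1 library. TRIM58 was thus at least 21.3-fold higher than WT on day 2 (adjusted p = 0.000118), at least 76.2-fold on day 6 (adjusted p = 4.24e-07) and at least 59.8-fold on day 8 (adjusted p = 2.85e-07). On day 8 the UHRF1-AID/DNMT1-AID libraries were 69.9-fold above UHRF1-AID, with a 95% counting interval of 23.5 to 342.4, and at least 61.5-fold above DNMT1-AID. The adjusted p-values were 3.37e-06 and 1.17e-06. Intervals and floors cover counting error only.

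The 250 bases before the start sites of TRIM58 and TRIM61 are shown because these genes were silent in WT cells and read in the double degron, and because CpG is the dinucleotide that DNMT1 methylates. CpG is in capitals, 12 in TRIM58 (chr1:247856937-247857186, plus strand) and 8 in TRIM61 (chr4:164977658-164977907, minus strand), from RefSeq on GRCh38.p14.
TRIM58: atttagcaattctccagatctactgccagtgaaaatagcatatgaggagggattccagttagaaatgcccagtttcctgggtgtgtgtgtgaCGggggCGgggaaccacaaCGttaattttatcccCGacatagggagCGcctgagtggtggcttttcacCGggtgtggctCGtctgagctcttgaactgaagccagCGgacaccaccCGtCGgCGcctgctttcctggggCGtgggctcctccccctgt
TRIM61: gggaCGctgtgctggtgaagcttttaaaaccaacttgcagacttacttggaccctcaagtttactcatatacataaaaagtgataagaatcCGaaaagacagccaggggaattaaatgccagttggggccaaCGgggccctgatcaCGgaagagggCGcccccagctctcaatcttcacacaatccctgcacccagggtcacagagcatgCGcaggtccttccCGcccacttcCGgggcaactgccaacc
With the first 50 bases of the transcript added, the 300-base windows held 20 CpG in TRIM58 and 10 in TRIM61, against a median of 21 over 21598 protein-coding windows. TRIM50, also silent in WT on day 8, had 3 in its window. Methylation of these windows was not analysed here.

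TRIM43 and TRIM43B, preimplantation embryo genes on chromosome 2, share 99.4% of their transcript, so reads could be split between them and the pair is best read together. TRIM43 read 1.53, 2.10 and 4.15 CPM and TRIM43B read 2.14, 2.44 and 2.496 CPM in UHRF1-AID/DNMT1-AID on day 8, against 0 in WT for both. In UHRF1-AID they read 0.460, 0.734 and 0.651 CPM and 0.460, 0.844 and 0.423 CPM. The difference from WT was at least 65.9-fold for TRIM43 and 58.3-fold for TRIM43B in the double degron (adjusted p = 1.67e-08 and 9.18e-09), and at least 15.1-fold and 14.0-fold in UHRF1-AID cells (adjusted p = 6.12e-05 and 4e-05). In DNMT1-AID cells TRIM43 had 7 reads, all in replicate 2 (adjusted p = 0.0481), and without that library the call was lost, as it was without any 1 of the 3 WT libraries. TRIM43B was not called there. On day 2 the WT libraries held 2 reads of each of these genes.

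TRIM50, a PRY-SPRY ligase known from gastric parietal cells, read 1.38, 1.09 and 1.65 CPM in UHRF1-AID/DNMT1-AID libraries on day 8, against 0 in WT, which is at least 33.8-fold higher (adjusted p = 3.8e-06). UHRF1-AID had 0.142, 0.477 and 0.0976 CPM (adjusted p = 0.00923) and DNMT1-AID 0.304, 0.171 and 0 CPM (adjusted p = 0.0201). The UHRF1-AID call was lost without its replicate 2, and the DNMT1-AID call without its replicate 1 or without WT replicate 3. WT cells were not silent throughout: their day 6 libraries held reads of TRIM50, at a mean under 1 CPM. The floor of 0 reads in WT thus holds for day 8 and not for day 6. The TRIM49 group on chromosome 11 was not tested, but TRIM49 had 23 reads and its copy TRIM49C 18 reads in UHRF1-AID/DNMT1-AID on day 8, against 0 reads in WT for both. These 2 genes share 99.6% of their transcript.

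**Figure D3:**
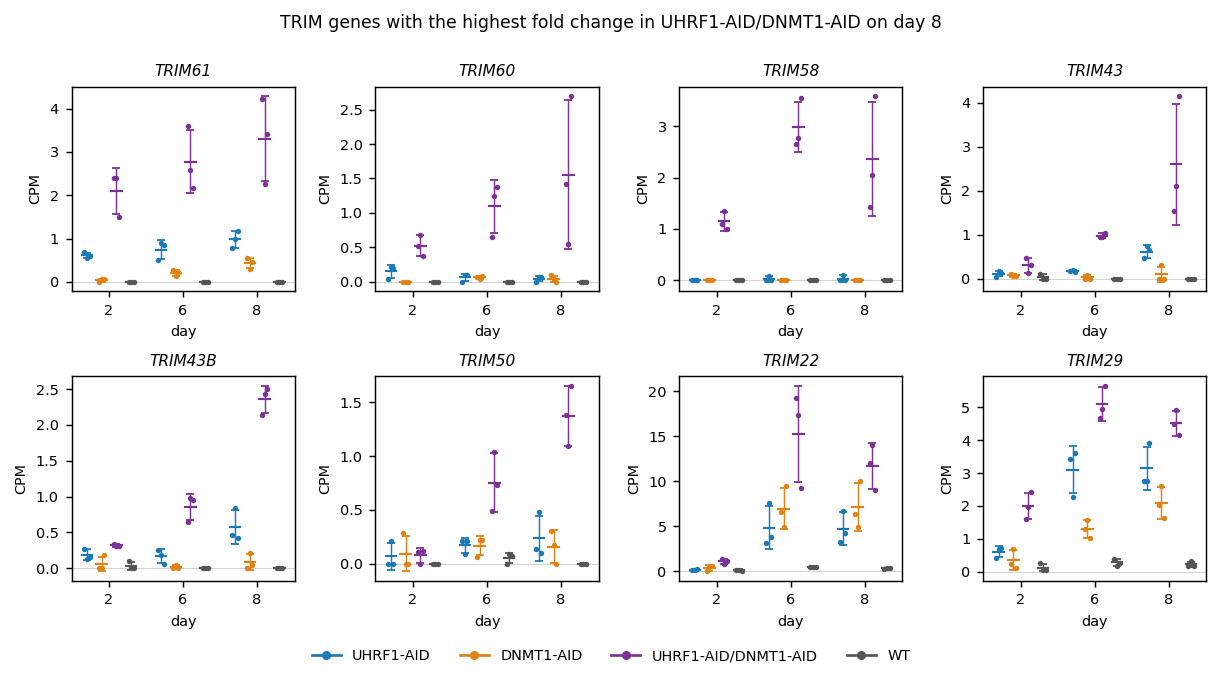
CPM of TRIM genes with no or few reads in WT cells, by day, for UHRF1-AID, DNMT1-AID, UHRF1-AID/DNMT1-AID and WT. Dots are the 3 libraries, bars the mean and error bars the SD; TRIM58 is at 1.43 to 3.58 CPM in the double degron on day 8 and at 0 in DNMT1-AID and WT.

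TRIM29, TRIM55 and TRIM54 were low but present in WT cells. TRIM29, a member without a RING domain that is known from squamous epithelium and from the control of innate sensing, read 4.48, 4.91 and 4.15 CPM in UHRF1-AID/DNMT1-AID, 2.76, 2.75 and 3.90 CPM in UHRF1-AID and 2.03, 2.61 and 1.63 CPM in DNMT1-AID on day 8. WT read 0.183, 0.315 and 0.169 CPM. All 3 degron lines lay clear of WT, with log2 fold changes of 4.34 ± 0.38, 3.82 ± 0.39 and 3.24 ± 0.40 (SE) in the same order (adjusted p = 5.72e-12, 7.74e-10 and 5.25e-08). TRIM29 passed the limit on low counts only through degron libraries, unlike TRIM55 and TRIM54, so it could only be called higher and the lack of overlap supports nothing.

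TRIM55 encodes MURF2, a ligase of striated muscle that binds microtubules and titin. It was the 1 member higher in every degron line on every day. On day 2 it read 8.00, 6.35 and 6.95 CPM in UHRF1-AID, 3.97, 4.34 and 2.82 CPM in DNMT1-AID and 4.88, 5.84 and 5.27 CPM in UHRF1-AID/DNMT1-AID, against 0.260, 0.776 and 0.540 CPM in WT. The groups did not overlap, and unlike TRIM61 or TRIM58 this gene was not highest in the double degron. On day 8 DNMT1-AID libraries had 4.10, 11.2 and 5.75 CPM, UHRF1-AID libraries 3.72, 3.67 and 5.56 CPM, UHRF1-AID/DNMT1-AID libraries 3.41, 3.57 and 3.99 CPM, and WT libraries 0.320, 0.450 and 0.337 CPM. The log2 fold changes against WT on day 8 were 4.23 ± 0.39 in DNMT1-AID, 3.54 ± 0.40 in UHRF1-AID and 3.30 ± 0.41 in UHRF1-AID/DNMT1-AID cells (adjusted p = 3.35e-10, 1.22e-08 and 1.74e-08). UHRF1-AID/DNMT1-AID was lower than DNMT1-AID (log2 fold change -0.93 ± 0.29, adjusted p = 0.0102), a call that was lost without DNMT1-AID replicate 2. The closely related TRIM54, which encodes MURF3, differed far less: it read 0.764, 0.882 and 0.926 CPM in UHRF1-AID/DNMT1-AID and 0.183, 0.495 and 0.304 CPM in WT on day 8 (log2 fold change 1.38 ± 0.51, adjusted p = 0.0164), and that call was lost without WT replicate 1, without WT replicate 3 and after correction for GC content and length. TRIM63, which encodes MURF1, had at most 3 reads in any group.

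Among the 10 members listed as interferon-responsive (TRIM5, TRIM14, TRIM21, TRIM22, TRIM25, TRIM26, TRIM34, TRIM38, TRIM56 and TRIM69), day 8 gave calls in both directions. In UHRF1-AID/DNMT1-AID cells 5 were higher (TRIM5, TRIM21, TRIM22, TRIM26 and TRIM69) and 2 lower (TRIM25 and TRIM34). UHRF1-AID cells had 4 higher (TRIM5, TRIM21, TRIM22 and TRIM69) and DNMT1-AID cells 4 higher (TRIM21, TRIM22, TRIM26 and TRIM69), each with TRIM25 lower. Of all genes, 68.5% were called in UHRF1-AID/DNMT1-AID (35.7% higher, 32.8% lower). The share was 45.3% in UHRF1-AID (24.2% higher, 21% lower) and 47.5% in DNMT1-AID cells (25.1% higher, 22.4% lower). The number of calls in either direction does not stand out. The median log2 fold change of the 10 was 0.334 in UHRF1-AID/DNMT1-AID, 0.125 in UHRF1-AID and 0.085 in DNMT1-AID cells, beside 0.033, 0.035 and 0.021 over all genes tested. Earlier days differed. On day 2 the double degron had 1 higher (TRIM22) and 4 lower (TRIM25, TRIM34, TRIM38 and TRIM56), where 16.3% of all genes were higher and 11.5% lower. Day 6 had 6 higher (TRIM5, TRIM14, TRIM21, TRIM22, TRIM26 and TRIM69) and 1 lower (TRIM25), where 19% were higher and 21.9% lower.

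The start sites of 6 of these genes hold the core of an interferon-stimulated response element, the sequence bound by the ISGF3 complex and by IRF factors. The letters searched were GAAA, any 2 bases and GAAA again, on both strands (TTTC, any 2 bases and TTTC on the other strand), in RefSeq windows of 300 bases on GRCh38.p14. The match stands in capitals within 30 bases on the gene's own strand, and TRIM21 and TRIM26 each hold 2 overlapping matches.
TRIM5: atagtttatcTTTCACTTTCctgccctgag
TRIM14: acggccgaggTTTCGGTTTCccttgggagc
TRIM21: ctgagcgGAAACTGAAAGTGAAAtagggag
TRIM26: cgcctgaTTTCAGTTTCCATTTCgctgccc
TRIM34: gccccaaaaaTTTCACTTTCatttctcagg
TRIM69: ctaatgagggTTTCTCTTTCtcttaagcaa
They lie at chr11:5685082-5685111 (TRIM5, minus strand), chr9:98119229-98119258 (TRIM14, minus), chr11:4393663-4393692 (TRIM21, minus), chr6:30213578-30213607 (TRIM26, minus), chr11:5624901-5624930 (TRIM34, plus) and chr15:44736456-44736485 (TRIM69, plus). Of the 58 members with a RefSeq window, 10 held a match, 6 of 9 on the interferon list and 4 of 49 others. Of 15333 protein-coding genes with a window, 4.19% held a match, as did 3.57% of the 35116 windows in the table. TRIM22 had no window in the table. A match is a description of the sequence and not a bound site, and TRIM14 and TRIM34, which hold one, were not higher on day 8.

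TRIM22, an antiviral ligase of primates that restricts HIV transcription, had the highest fold change of the list. On day 8 it read 11.98, 14.1 and 8.98 CPM in UHRF1-AID/DNMT1-AID, 3.29, 6.75 and 4.23 CPM in UHRF1-AID and 6.38, 4.88 and 10.1 CPM in DNMT1-AID libraries, against 0.229, 0.405 and 0.371 CPM in WT. Every degron library was above every WT library. Log2 fold changes against WT were 5.09 ± 0.46, 3.79 ± 0.48 and 4.36 ± 0.47 in the same order (adjusted p = 4.91e-11, 1.44e-07 and 1.05e-08). On day 2 the call was made only in UHRF1-AID/DNMT1-AID, at 1.43, 0.861 and 1.12 CPM against 0.208, 0.166 and 0 CPM in WT (log2 fold change 3.13 ± 0.77, adjusted p = 0.00263). On day 8 the double degron exceeded UHRF1-AID by 1.30 ± 0.33 on the log2 scale (adjusted p = 0.00199). Against DNMT1-AID the log2 fold change was 0.72 ± 0.32 (adjusted p = 0.0663).

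TRIM21 binds antibody-coated virus in the cytosol and marks it for the proteasome. It read 152, 158 and 135 CPM in UHRF1-AID/DNMT1-AID, 81.3, 113 and 83.99 CPM in UHRF1-AID and 79.4, 90.3 and 80.6 CPM in DNMT1-AID libraries on day 8, against 44.9, 46.0 and 49.6 CPM in WT. The double degron stood above both single degrons, and both stood above WT. The log2 fold change in UHRF1-AID/DNMT1-AID was 1.66 ± 0.12 on day 8 (adjusted p = 1.12e-13) and 0.94 ± 0.12 on day 6 (adjusted p = 1.26e-07). On day 2 it was 0.31 ± 0.13 (adjusted p = 0.069), while TRIM21 was called higher that day in UHRF1-AID, at 29.04, 35.7 and 32.8 CPM, and in DNMT1-AID, at 42.2, 29.9 and 33.3 CPM, against 23.6, 24.7 and 24.8 CPM in WT. These fold changes were 0.42 ± 0.13 and 0.53 ± 0.13 on the log2 scale (adjusted p = 0.014 and 0.017). Both calls were lost without WT replicate 1, the UHRF1-AID call also without its replicate 2, and the DNMT1-AID call also without WT replicate 3, without its replicate 1 and with library size alone. From day 2 to day 8 the change in UHRF1-AID/DNMT1-AID exceeded that in WT by 1.35 ± 0.18 on the log2 scale (adjusted p = 3.1e-07).

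TRIM5, the retroviral capsid sensor, read 60.4, 60.3 and 46.3 CPM in UHRF1-AID/DNMT1-AID and 32.3, 31.9 and 33.1 CPM in WT on day 8 (log2 fold change 0.78 ± 0.11, adjusted p = 2.89e-07), with no overlap. Its UHRF1-AID call of day 8 (log2 fold change 0.29 ± 0.11, adjusted p = 0.0389) was lost without any 1 of the WT libraries and without UHRF1-AID replicate 2 or 3. TRIM69, which restricts vesicular stomatitis and dengue viruses, read 60.0, 60.2 and 47.3 CPM in UHRF1-AID/DNMT1-AID, 43.9, 40.8 and 44.9 CPM in DNMT1-AID and 38.9, 46.2 and 31.1 CPM in UHRF1-AID, against 31.9, 30.5 and 25.3 CPM in WT. On the log2 scale the fold changes were 0.93 ± 0.13, 0.56 ± 0.13 and 0.41 ± 0.13 in that order (adjusted p = 1.12e-07, 0.000546 and 0.0104). Of these, the UHRF1-AID call overlapped WT and was lost without WT replicate 3 or UHRF1-AID replicate 2. TRIM26, a ligase of the MHC region, was higher by 0.51 ± 0.11 in UHRF1-AID/DNMT1-AID (adjusted p = 8.07e-05), at 99.3, 104 and 75.8 CPM against 62.0, 69.98 and 64.5 CPM in WT. In DNMT1-AID its log2 fold change of 0.29 ± 0.11 (adjusted p = 0.0232) was lost without WT replicate 1 or 3, without DNMT1-AID replicate 1 or 2, with library size alone and after correction for GC content and length.

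TRIM25 went the other way. It attaches ubiquitin chains in the RIG-I pathway and carries ISG15 onto targets, and at 98.9, 89.4 and 88.01 CPM in UHRF1-AID/DNMT1-AID, 113, 110 and 102 CPM in DNMT1-AID and 137, 109 and 132 CPM in UHRF1-AID it lay below the 172, 190 and 173 CPM of WT on day 8. No degron library reached the WT range. The log2 fold changes were -0.95 ± 0.09, -0.72 ± 0.09 and -0.50 ± 0.09 (adjusted p = 4.58e-11, 9.8e-08 and 3.18e-05). Day 2 already had it lower in the double degron, by a log2 fold change of -0.35 ± 0.09 (adjusted p = 0.0044), a call lost without UHRF1-AID/DNMT1-AID replicate 3. On day 8 TRIM34 was lower in the double degron by a log2 fold change of -0.47 ± 0.17 (adjusted p = 0.0159), but the call was lost without WT replicate 1 or UHRF1-AID/DNMT1-AID replicate 2, and 83.6% of its exonic bases are shared with the read-through gene TRIM6-TRIM34. TRIM14, TRIM38 and TRIM56 had log2 fold changes of 0.16 ± 0.09, -0.01 ± 0.09 and -0.03 ± 0.15 in UHRF1-AID/DNMT1-AID on day 8 (adjusted p = 0.121, 0.941 and 0.883). In that line TRIM14 was called higher on day 6, and TRIM38 and TRIM56 lower on day 2.

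**Figure D4:**
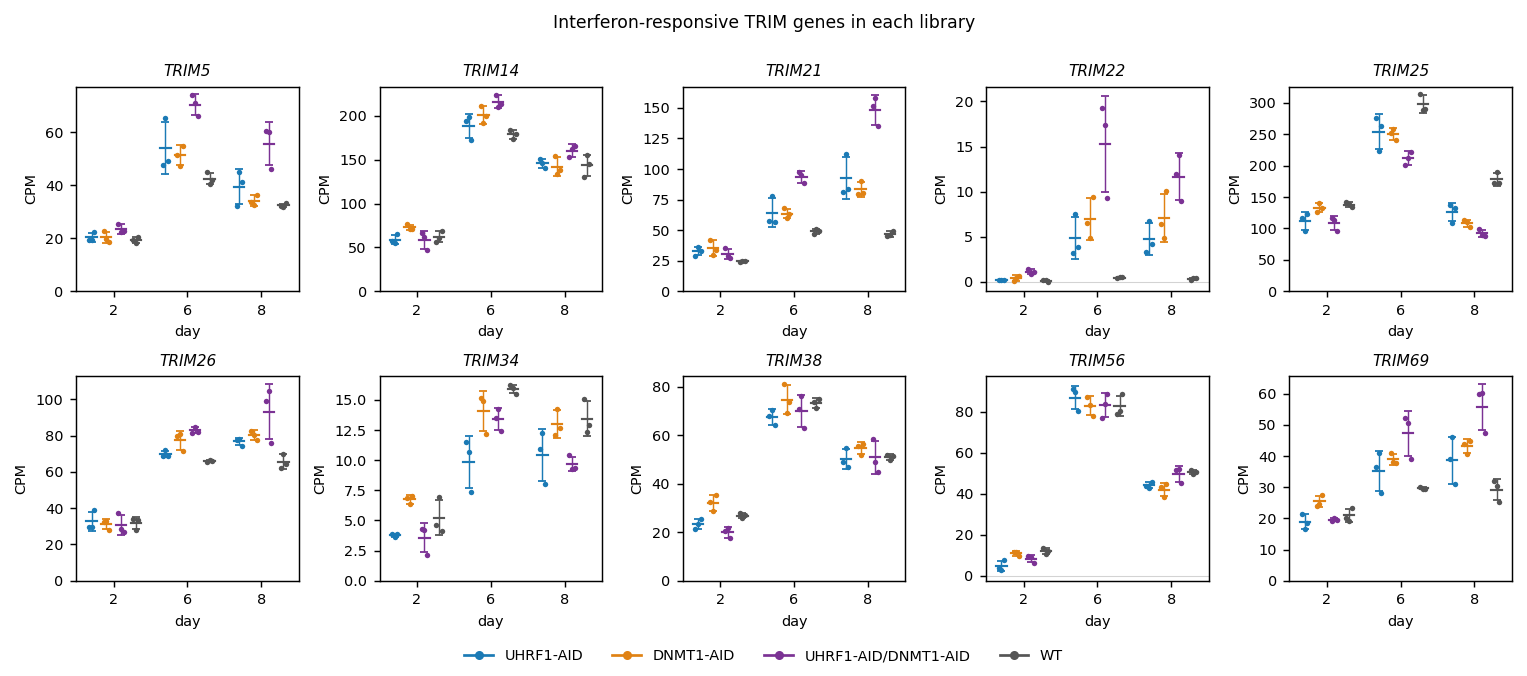
CPM of interferon-responsive TRIM genes by day for UHRF1-AID, DNMT1-AID, UHRF1-AID/DNMT1-AID and WT cells. Dots are the 3 libraries, bars the mean and error bars the SD; on day 8 TRIM21 is at 135 to 158 CPM in the double degron against 44.9 to 49.6 CPM in WT, and TRIM25 is lower in the double degron than in WT.

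The genes that work beside these members were read from lists outside the family. Of 14 genes of RIG-I signalling and ISGylation, 10 were higher and 1 lower in UHRF1-AID/DNMT1-AID, 9 higher and 1 lower in UHRF1-AID, and 8 higher and 1 lower in DNMT1-AID on day 8. Of all genes, 35.7% were higher and 32.8% lower in UHRF1-AID/DNMT1-AID, 24.2% and 21% in UHRF1-AID, and 25.1% and 22.4% in DNMT1-AID. In either direction 68.5%, 45.3% and 47.5% of all genes were called. UBA7, the E1 enzyme of ISG15, had a log2 fold change of 4.62 ± 0.25 and the RIG-I-like receptor DHX58 one of 3.46 ± 0.16 in UHRF1-AID/DNMT1-AID (adjusted p = 1.09e-15 and 9.12e-19). MAVS, the adaptor downstream of RIG-I, was the lower one, at -0.88 ± 0.12 (adjusted p = 1.52e-07). Of 12 E2 enzymes listed as TRIM partners or as the ISG15 E2, 3 were higher and 5 lower in UHRF1-AID/DNMT1-AID, a share close to the 68.5% of all genes. The ISG15 E2 UBE2L6 was at 0.97 ± 0.13 (adjusted p = 4.25e-08). PML, which is TRIM19 under another symbol and organises nuclear bodies, was at 220.63 CPM in UHRF1-AID/DNMT1-AID and 115.82 CPM in WT on day 8 (log2 fold change 0.93 ± 0.14, adjusted p = 6.67e-07). MID1, which is TRIM18, a microtubule-bound ligase, was at 20.13 CPM in UHRF1-AID/DNMT1-AID and 58.56 CPM in WT (log2 fold change -1.54 ± 0.14, adjusted p = 1.50e-11).

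The lower members came from several C-terminal classes. TRIM72, also called MG53, a membrane repair protein of muscle, read 15.03, 15.5 and 13.2 CPM in UHRF1-AID/DNMT1-AID, 28.6, 22.4 and 23.7 CPM in UHRF1-AID and 32.5, 35.7 and 30.6 CPM in DNMT1-AID on day 8, against 47.2, 48.2 and 48.2 CPM in WT. The 4 lines did not overlap at all. The log2 fold changes against WT were -1.71 ± 0.15, -0.94 ± 0.15 and -0.54 ± 0.14 in the same order (adjusted p = 1.25e-11, 3.24e-06 and 0.00259), and UHRF1-AID/DNMT1-AID lay below UHRF1-AID (log2 fold change -0.77 ± 0.15, adjusted p = 0.000128) and below DNMT1-AID (-1.17 ± 0.15, adjusted p = 2.17e-07).

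TRIM23, the only member with an ADP-ribosylation factor domain, read 8.82, 7.56 and 8.01 CPM in UHRF1-AID/DNMT1-AID on day 8, against 24.03, 19.0 and 19.6 CPM in WT. UHRF1-AID had 15.2, 14.8 and 15.4 CPM and DNMT1-AID 14.5, 14.4 and 13.5 CPM. The single degrons thus stood between the double degron and WT without overlap. Against WT the log2 fold changes were -1.36 ± 0.11 in UHRF1-AID/DNMT1-AID, -0.46 ± 0.11 in UHRF1-AID and -0.56 ± 0.11 in DNMT1-AID cells (adjusted p = 1.31e-12, 0.00055 and 6.03e-05). TRIM37, the MATH-domain ligase whose loss causes mulibrey nanism, read 29.7, 30.7 and 32.2 CPM in UHRF1-AID/DNMT1-AID, 50.9, 37.5 and 43.7 CPM in UHRF1-AID and 41.5, 36.04 and 40.4 CPM in DNMT1-AID, against 63.9, 67.1 and 66.2 CPM in WT. Again no degron library reached WT, and the log2 fold changes were -1.09 ± 0.09, -0.58 ± 0.09 and -0.74 ± 0.09 in the same order (adjusted p = 1.32e-12, 2.14e-06 and 3.33e-08).

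The class with a COS box and a fibronectin type III domain, which binds microtubules, had 3 tested members. All 3 were lower in UHRF1-AID/DNMT1-AID on day 8, where 32.8% of all genes were lower, and 3 members are too few to speak for a class. TRIM36, known from the acrosome reaction, read 7.75, 6.51 and 8.66 CPM there and 15.8, 13.4 and 16.5 CPM in WT (log2 fold change -0.998 ± 0.14, adjusted p = 6.81e-08), and was lower in DNMT1-AID (-0.78 ± 0.13) and UHRF1-AID cells (-0.57 ± 0.13) as well (adjusted p = 1.14e-05 and 0.000532). Its DNMT1-AID libraries read 7.95, 10.0 and 8.70 CPM, clear of WT. TRIM46, which bundles microtubules at the axon initial segment, read 1.07, 1.34 and 0.483 CPM in UHRF1-AID/DNMT1-AID and 2.24, 1.26 and 2.63 CPM in WT, so that the groups overlapped (log2 fold change -1.10 ± 0.32, adjusted p = 0.00265). TRIM9, a neuronal ligase, had -0.79 ± 0.25 (adjusted p = 0.00609), also with overlap, and lost the call without UHRF1-AID/DNMT1-AID replicate 3. TRIM10, a PRY-SPRY member of the MHC region known from erythroid cells, read 1.27, 0.546 and 0.644 CPM in UHRF1-AID/DNMT1-AID and 1.65, 1.62 and 1.45 CPM in WT (log2 fold change -0.96 ± 0.43, adjusted p = 0.0473). Its call was lost without any 1 of the WT libraries and without UHRF1-AID/DNMT1-AID replicate 2 or 3. TRIM41, a PRY-SPRY ligase, was among the 3 with the lowest fold in UHRF1-AID cells, at 31.2, 24.4 and 28.04 CPM against 39.7, 44.7 and 46.1 CPM in WT (log2 fold change -0.64 ± 0.10, adjusted p = 1.51e-06).

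**Figure D5:**
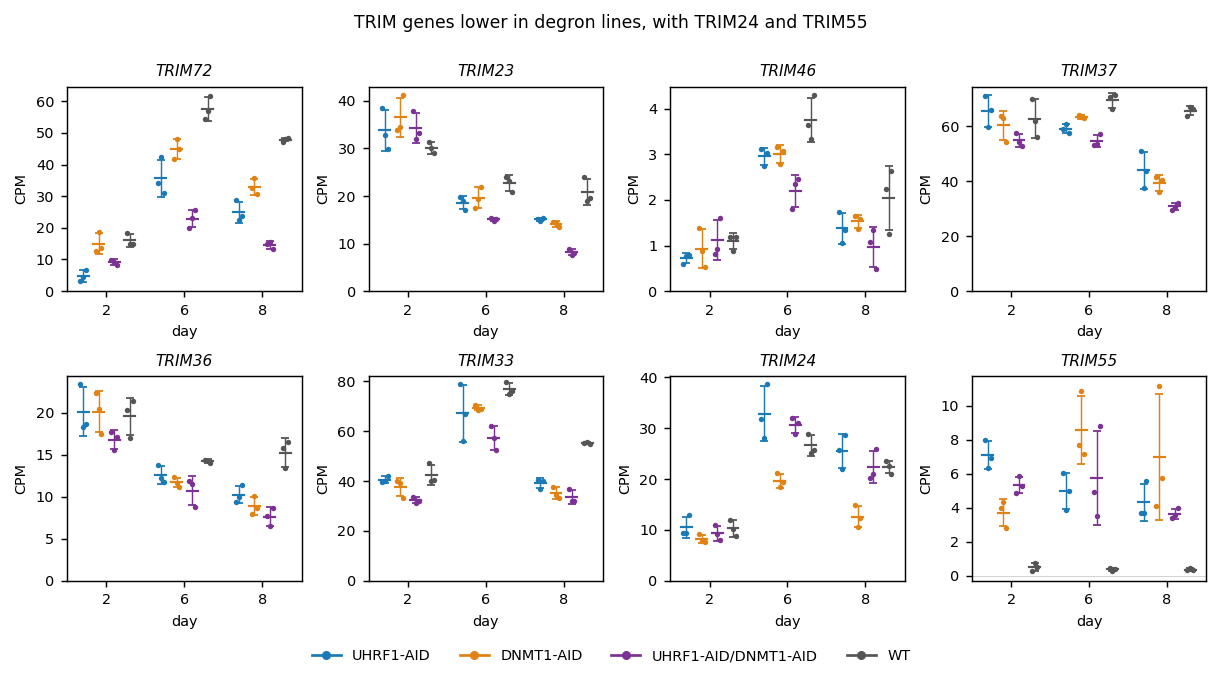
CPM of TRIM genes that were lower than WT or differed between degron lines, by day, for UHRF1-AID, DNMT1-AID, UHRF1-AID/DNMT1-AID and WT. Dots are the 3 libraries, bars the mean and error bars the SD; on day 8 TRIM72 is at 13.2 to 15.5 CPM in the double degron against 47.2 to 48.2 CPM in WT, and TRIM24 is at 10.6 to 14.8 CPM in DNMT1-AID cells.

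TRIM24 differed by line. It encodes TIF1-alpha, a nuclear receptor coregulator whose PHD finger and bromodomain read histone H3. DNMT1-AID libraries read 14.8, 10.6 and 12.4 CPM on day 8, against 23.5, 22.6 and 21.1 CPM in WT, while UHRF1-AID read 25.7, 22.0 and 28.6 CPM and UHRF1-AID/DNMT1-AID 20.2, 21.0 and 25.9 CPM. DNMT1-AID lay alone below the other lines. Its log2 fold change against WT was -0.82 ± 0.14 (adjusted p = 1.66e-05), against values of 0.19 ± 0.14 in UHRF1-AID and 0.00 ± 0.14 in UHRF1-AID/DNMT1-AID cells (adjusted p = 0.281 and 0.996). The differences themselves were called: UHRF1-AID exceeded DNMT1-AID by 1.01 ± 0.14 and UHRF1-AID/DNMT1-AID exceeded DNMT1-AID by 0.82 ± 0.14 on the log2 scale (adjusted p = 6.08e-06 and 1.93e-05). On day 6 DNMT1-AID was lower by a log2 fold change of -0.44 ± 0.14 (adjusted p = 0.0322), a call lost without WT replicate 1 or 3 and without DNMT1-AID replicate 2 or 3.

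TRIM33, of the same PHD and bromodomain class and a regulator of SMAD signalling, was lower in all 3 lines on day 8, at 36.7, 31.8 and 32.1 CPM in UHRF1-AID/DNMT1-AID, 37.7, 34.5 and 33.3 CPM in DNMT1-AID and 40.5, 36.7 and 40.1 CPM in UHRF1-AID, against 55.2, 55.8 and 54.9 CPM in WT. The log2 fold changes of -0.72 ± 0.09, -0.65 ± 0.09 and -0.50 ± 0.09 (adjusted p = 2.57e-08, 6.61e-07 and 3.65e-05) came without overlap. TRIM66, the third of the class, was not called in any comparison with WT.

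Comparing the degron lines on day 8, UHRF1-AID exceeded DNMT1-AID for 8 members and was lower for 0 (10% of all genes were higher and 8.24% lower, 18.3% in all). At an unadjusted p under 0.05 edgeR had 4 lower, and DESeq2 called 1. The count was 4 without UHRF1-AID replicate 3, 3 without DNMT1-AID replicate 2 and 5 without DNMT1-AID replicate 3, 2 when only the libraries of the 2 lines were fitted, and after correction for GC content and length 7 were higher and 5 lower. UHRF1-AID/DNMT1-AID against UHRF1-AID gave 13 higher and 13 lower (20.4% and 23.5% of all genes, 43.8% in all), and against DNMT1-AID 14 higher and 11 lower (22.2% and 24%, 46.1% in all). Against UHRF1-AID the lower count was 8 without UHRF1-AID/DNMT1-AID replicate 2, and against DNMT1-AID it was 7 without DNMT1-AID replicate 1. With library size alone UHRF1-AID/DNMT1-AID had 10 higher and 15 lower against UHRF1-AID. TRIM74, a short member of chromosome 7, was higher by 1.63 ± 0.47 in UHRF1-AID than in DNMT1-AID (adjusted p = 0.0139), without a call against WT in either line, and lost that call without DNMT1-AID replicate 2.

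On day 2 the 6 members lower in UHRF1-AID, 10.7% of those tested against 14.4% of all genes, were TRIM72, TRIM56, TRIM8, TRIM62, TRIM47 and TRIM25, with log2 fold changes of -1.72 ± 0.17, -1.32 ± 0.19, -0.90 ± 0.12, -0.86 ± 0.16, -0.33 ± 0.10 and -0.30 ± 0.09 (adjusted p from 5.29e-09 to 0.0124). TRIM56, an antiviral ligase that acts on STING, read 3.68, 2.96 and 7.78 CPM in UHRF1-AID and 13.6, 10.7 and 12.2 CPM in WT. TRIM8, a ligase that promotes TNF and STAT3 signalling, read 27.1, 25.7 and 41.9 CPM in UHRF1-AID and 63.0, 56.2 and 57.3 CPM in WT. In both, the third UHRF1-AID library was the nearest to WT without reaching it. TRIM47 and TRIM25 lost the call without UHRF1-AID replicate 2. Correction for GC content and length kept all 6 calls but brought TRIM56 to -0.79 and TRIM8 to -0.56. By day 8 TRIM56 and TRIM8 had log2 fold changes of -0.19 ± 0.15 and 0.14 ± 0.11 in UHRF1-AID (adjusted p = 0.295 and 0.323), and their change from day 2 to day 8 exceeded that of WT by 1.13 ± 0.24 and 1.03 ± 0.16 (adjusted p = 0.00104 and 1.72e-05).

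The change from day 2 to day 8 was set against that of WT in 1 model. It was higher than in WT for 6 members and lower for 7 in UHRF1-AID (10.7% and 7.09% of all genes), for 9 and 12 in UHRF1-AID/DNMT1-AID (16.1% and 22.6%), and for 0 and 5 in DNMT1-AID cells (7.05% and 9.28%). At an unadjusted p under 0.05 edgeR had 7 higher in DNMT1-AID, and DESeq2 called 2. With library size alone UHRF1-AID/DNMT1-AID had 7 higher and 15 lower. Among the called members TRIM23 was the lowest in the double degron, with a difference in change of -1.55 on the log2 scale, and TRIM21 was at 1.35.

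Calls in both directions were made for 6 members. On day 2 TRIM47, a PRY-SPRY ligase, was lower in UHRF1-AID cells, with 45.8, 39.6 and 48.0 CPM against 58.1, 52.3 and 57.6 CPM in WT. On day 8 it was higher in all 3 lines, at 124, 123 and 133 CPM in UHRF1-AID/DNMT1-AID, 116, 108 and 94.7 CPM in UHRF1-AID and 91.3, 103 and 103 CPM in DNMT1-AID, against 68.4, 76.5 and 79.5 CPM in WT. The log2 fold change of 0.76 ± 0.09 in UHRF1-AID/DNMT1-AID (adjusted p = 1.42e-08) turned to -0.04 after correction for GC content and length, so the direction depends on that choice. Of its exonic bases, 51.6% are shared with a gene on the other strand. TRIM8 read 173, 191 and 193 CPM in UHRF1-AID/DNMT1-AID and 145, 160 and 156 CPM in WT on day 8, without overlap, and its log2 fold change of 0.27 ± 0.11 (adjusted p = 0.028) turned to -0.19 after the correction. TRIM13, a ligase of the endoplasmic reticulum membrane, was higher in all 3 lines on day 2, at 44.7, 44.5 and 44.7 CPM in UHRF1-AID/DNMT1-AID, 44.1, 40.6 and 35.7 CPM in UHRF1-AID and 39.6, 41.9 and 43.5 CPM in DNMT1-AID against 32.4, 34.4 and 30.02 CPM in WT. On day 6 it was lower in UHRF1-AID/DNMT1-AID, at 19.7, 20.3 and 20.1 CPM against 26.2, 24.8 and 27.0 CPM in WT (log2 fold change -0.38 ± 0.10, adjusted p = 0.00232). The day 6 call was lost after the correction, the UHRF1-AID call of day 2 without WT replicate 3 or UHRF1-AID replicate 1, and the DNMT1-AID call of day 2 without WT replicate 1 or 3 or its own replicate 2 or 3. Other genes share 21.9% of the exonic bases of TRIM13.

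TRIM15, a PRY-SPRY member of the MHC region, read 6.24, 8.80 and 5.75 CPM in UHRF1-AID/DNMT1-AID and 10.8, 12.1 and 11.1 CPM in WT on day 6 (log2 fold change -0.70 ± 0.17, adjusted p = 0.00108), without overlap. On day 8 it read 15.03, 12.2 and 15.1 CPM in UHRF1-AID/DNMT1-AID and 11.9, 9.49 and 10.8 CPM in WT (log2 fold change 0.39 ± 0.16, adjusted p = 0.0344), also without overlap, and that call was lost without WT replicate 2 or 3 and without UHRF1-AID/DNMT1-AID replicate 1 or 3. TRIM16, a member that lacks a RING domain and binds damaged membranes, was higher in UHRF1-AID on day 2, at 13.8, 13.7 and 13.8 CPM against 9.05, 11.48 and 11.1 CPM in WT (log2 fold change 0.39, adjusted p = 0.0377). On day 8 it was lower in UHRF1-AID/DNMT1-AID, at 9.63, 7.89 and 11.998 CPM, and in DNMT1-AID, at 8.80, 10.9 and 8.65 CPM, against 12.2, 13.6 and 11.9 CPM in WT (log2 fold changes -0.35 and -0.41, adjusted p = 0.0281 and 0.0158). UHRF1-AID/DNMT1-AID overlapped WT there, and each of the 3 calls of TRIM16 was lost without at least 1 library of WT and 1 of the degron line. Other genes share 28.7% of the exonic bases of TRIM16. TRIM32, an NHL-repeat ligase linked to limb-girdle muscular dystrophy, read 61.6, 69.6 and 64.3 CPM in UHRF1-AID/DNMT1-AID on day 2, above the 54.5, 54.5 and 53.6 CPM of WT (log2 fold change 0.27, adjusted p = 0.00816). On day 8 it read 33.8, 38.1 and 31.0 CPM in UHRF1-AID/DNMT1-AID, lower than in WT, and 45.0, 43.4 and 48.0 CPM in UHRF1-AID, higher than in WT at 37.9, 40.6 and 41.2 CPM (log2 fold changes -0.22 and 0.19, adjusted p = 0.0126 and 0.0405). The highest UHRF1-AID/DNMT1-AID library overlapped WT on day 8, and that call was lost without UHRF1-AID/DNMT1-AID replicate 3. The UHRF1-AID call of day 8 was lost without WT replicate 1 or 2 and without UHRF1-AID replicate 1 or 3, and the call of day 2 without UHRF1-AID/DNMT1-AID replicate 2 and with library size alone.

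WT cells, too, differed between days. From day 2 to day 6, 29 members were higher on day 6 and 6 lower, or 62.5% of the tested members, against 67.7% of all genes. The higher share was 51.8% of members, against 35.7% of all genes, and the lower share 10.7%, against 32.1%. On day 8 against day 2, 23 were higher and 5 lower, where 30.1% of all genes were higher and 29.7% lower, 59.8% in all. With library size alone, which shifted the median of all genes by 0.291 on the log2 scale, the day 6 counts were 39 higher and 0 lower. After correction for GC content and length they were 23 higher and 9 lower on day 6, and 15 higher and 8 lower on day 8.

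TRIM66, a testis-enriched member of the PHD and bromodomain class, read 11, 11.4 and 11.1 CPM on day 6 and 0.989, 1.22 and 1.51 CPM on day 2 in WT cells (log2 fold change 3.16 ± 0.39, adjusted p = 1.11e-08), and 2.52, 2.79 and 3.31 CPM on day 8. TRIM56 read 79.1, 80.6 and 88.4 CPM on day 6 and 13.6, 10.7 and 12.2 CPM on day 2 (log2 fold change 2.77 ± 0.16, adjusted p = 2.33e-15). Neither gene overlapped between the days. TRIM72 had a log2 fold change of 1.85 ± 0.15 (adjusted p = 1.54e-12) over the same days. Of the 10 interferon-responsive members, 9 were higher on day 6 than on day 2 in WT cells, where 35.7% of all genes were higher. The exception was TRIM22 (adjusted p = 0.0522). The median log2 fold change of the 10 was 1.294, beside 0.067 over all genes tested. TRIM25 was at 314, 289 and 290 CPM on day 6 and 142, 138 and 134 CPM on day 2 in WT (log2 fold change 1.11 ± 0.09, adjusted p = 7.42e-13). For day 8 against day 2 in WT, the fold change of TRIM25 turned sign after correction for GC content and length. Time under doxycycline and auxin, time in culture and library preparation, which the labels do not give, cannot be told apart between days. The paper proposes that auxin likely explains why WT cells of days 6 and 8 stood apart. As in the paper, each degron line was therefore set against WT of the same day.

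By domain and place, calls were spread over the family. The testis and embryo list had 4 tested members of 18, TRIM43, TRIM43B, TRIM60 and TRIM69. All 4 were higher in UHRF1-AID/DNMT1-AID on day 8, where 35.7% of all genes were higher. Of the 4, all but TRIM69 passed the limit on low counts only through degron libraries, so this count supports nothing. Of 29 tested PRY-SPRY members, 12 were higher and 10 lower in the same comparison, where 35.7% of all genes were higher and 32.8% lower. Of the 12, TRIM43, TRIM43B, TRIM50, TRIM58 and TRIM60 passed the limit on low counts only through degron libraries. On chromosome 11p15, where TRIM5, TRIM6, TRIM22 and TRIM34 lie together, TRIM22 and TRIM5 were higher and TRIM34 and TRIM6 lower. In UHRF1-AID/DNMT1-AID on day 8, 68.5% of all genes were called. TRIM6 lost its call without WT replicate 2 or UHRF1-AID/DNMT1-AID replicate 3, and shares 29.2% of its exonic bases with TRIM6-TRIM34. In the MHC region, 2 of 7 tested members were higher (TRIM15 and TRIM26) and 2 lower (TRIM10 and TRIM27). These members are too few to set apart from the 68.5% called among all genes. TRIM15 turned to -0.14 after correction for GC content and length, and TRIM27 lost its call after it and without UHRF1-AID/DNMT1-AID replicate 2. The 3 tested members with NHL repeats, which bind RNA or cargo, had TRIM2 higher in UHRF1-AID (log2 fold change 0.68 ± 0.14, adjusted p = 0.000235) and in DNMT1-AID (0.47 ± 0.14, adjusted p = 0.00757) but not called in UHRF1-AID/DNMT1-AID cells (0.11 ± 0.14, adjusted p = 0.51). UHRF1-AID/DNMT1-AID was lower than UHRF1-AID for TRIM2 (-0.57 ± 0.14, adjusted p = 0.00159). The DNMT1-AID call of TRIM2 was lost without DNMT1-AID replicate 1.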

How the data were processed

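RNA-seq libraries of HCT116 cells, 3 for each of 4 lines on days 2, 6 and 8, were analysed. Per the labels and the study's methods, the authors trimmed reads with Trim Galore, aligned them to hg38 with STAR and deposited raw read counts per Ensembl gene, made with featureCounts. The strand setting, the handling of multi-mapping reads and the annotation release are not given in the sources used here, so reads of overlapping and near-identical genes may be shared or lost. Among the called members this also concerns TRIM59, with 33.9% of its exonic bases shared with other genes.

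Of 60648 identifiers per file, 60462 matched GENCODE release 44, 142 did not, and 44 copies on the Y pseudoautosomal regions were left out. Protein-coding genes passing filterByExpr of edgeR 4.0.16 (minimum count 10) were kept, 15415 in all, scaled by TMM, and fitted in 1 robust quasi-likelihood model of 12 group means over all 36 libraries (R 4.3.3). P-values were adjusted by Benjamini-Hochberg over all 15415 genes, and the threshold was 0.05. SE is the log2 fold change divided by the square root of F. Floors are 3 reads and intervals are exact at 95%. The fit was tested on simulated data.

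The members and lists were chosen with earlier results of these data known. Values in every library are given for members called in UHRF1-AID/DNMT1-AID against WT on day 8 with a mean of at least 1 CPM in either group (the 8 highest and 6 lowest fold changes), for the 3 highest and 3 lowest in each single degron line on day 8 by the same rule, and for members called in opposite directions. Interferon-responsive members are given by value or count. Other members were named after their values were seen. Alternatives were DESeq2 1.42.0, library size scaling, no filter, a fold threshold of 2 (limit on the log2 scale of 1), only the libraries of each comparison, a replicate block and leaving out each library. A correction for GC content and length was chosen after seeing the data, as was the count of members that pass on WT libraries alone. Promoter windows came from RefSeq on GRCh38.p14.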

Additional observations from a re-analysis of the deposited data

Results flagged for a closer look

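These values are given because the change over time, or the difference between 2 degron lines, was itself tested with edgeR and called. The change is the log2 change from day 2 to day 8 in a degron line minus that in WT. In UHRF1-AID it was higher than in WT for 6 members and lower for 7, where 17.8% of all genes were called. TRIM56 exceeded WT by 1.13, TRIM8 by 1.03, TRIM47 by 0.84, TRIM72 by 0.78, TRIM21 by 0.57 and TRIM69 by 0.56. TRIM16 was at -0.70, TRIM37 at -0.64, TRIM23 at -0.63, TRIM36 at -0.61 and TRIM41 at -0.58. The excess of TRIM56, TRIM8 and TRIM72 went with levels in UHRF1-AID that were already lower than WT on day 2.

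In DNMT1-AID the change was lower than in WT for 5 members, where 16.3% of all genes were called. TRIM23 was at -0.84, TRIM36 at -0.82, TRIM37 at -0.68 and TRIM25 at -0.67. In UHRF1-AID/DNMT1-AID it was higher for 9 members and lower for 12, where 38.7% of all genes were called. TRIM43B had 5.83, a fitted value of a gene with few reads that depends on the prior count. TRIM21 exceeded WT by 1.35, TRIM69 by 1.03, TRIM26 by 0.56, TRIM5 by 0.49, TRIM47 by 0.47, TRIM38 by 0.42 and TRIM8 by 0.40. TRIM23 was at -1.55, TRIM72 at -0.91, TRIM37 at -0.90, TRIM36 at -0.78, TRIM16 at -0.64, TRIM25 at -0.61, TRIM32 at -0.48 and TRIM13 at -0.36.

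UHRF1-AID was higher than DNMT1-AID on day 8 for 8 members, where 18.3% of all genes were called. The log2 fold change was 2.75 for TRIM43B and 2.64 for TRIM43, both fitted on few reads, 1.14 for TRIM61, 1.01 for TRIM24 and 0.25 for TRIM32. TRIM23, TRIM36 and TRIM37 were called lower in the change of all 3 degron lines, which share their WT libraries.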

How the results depend on the processing

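Of 327 calls of a member in a comparison, 198 were made in every alternative, 101 were lost in at least 1 alternative other than leaving out a library, and 97 when some library was left out. Higher and lower counts are joined by a stroke below. With a fold threshold of 2 the counts against WT were 4/2 in UHRF1-AID, 1 higher in DNMT1-AID and 7/0 in UHRF1-AID/DNMT1-AID on day 2, 0 lower in UHRF1-AID, 0 lower in DNMT1-AID and 9/1 in UHRF1-AID/DNMT1-AID on day 6, and 7/0, 6/0 and 11/4 in these lines on day 8. WT had 0 lower on day 6 and 10/0 on day 8 against day 2. The change from day 2 to day 8 minus that of WT gave 2/0 in UHRF1-AID, 0 lower in DNMT1-AID and 3/2 in UHRF1-AID/DNMT1-AID. UHRF1-AID against DNMT1-AID gave 5 higher, UHRF1-AID/DNMT1-AID against UHRF1-AID 7/0 and against DNMT1-AID 9/1.

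With only the libraries of each comparison, UHRF1-AID had 4 higher on day 2, DNMT1-AID 10/8 on day 6 and 1 higher in the change from day 2 to day 8, UHRF1-AID 2 higher against DNMT1-AID, and UHRF1-AID/DNMT1-AID 7 lower against UHRF1-AID and 6 lower against DNMT1-AID. With library size alone, DNMT1-AID had 1/1 on day 2, 2 lower on day 6 and 7/19 on day 8, UHRF1-AID/DNMT1-AID 15 lower on day 2, UHRF1-AID 2 lower on day 6, and WT 0 lower on day 6 and 3 lower on day 8. That scaling moved the median of all genes on day 8 by -0.187 in UHRF1-AID/DNMT1-AID and -0.178 in DNMT1-AID. It lowered the higher share of DNMT1-AID calls on day 8 to 26.9%, against 50% with TMM. Without a filter UHRF1-AID had 2 lower on day 6. With DESeq2, DNMT1-AID had 2 lower on day 6 and 2 higher in the change, UHRF1-AID 10 higher in the change and 1 lower against DNMT1-AID, and UHRF1-AID/DNMT1-AID 7 lower against DNMT1-AID. After correction for GC content and length, UHRF1-AID had 9 lower and DNMT1-AID 3 lower on day 6, WT 15/8 on day 8, DNMT1-AID 1 higher in the change, and UHRF1-AID 5 lower against DNMT1-AID.

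That correction also turned 21 signs: TRIM44 at 0.244 and TRIM47 at -0.017 in DNMT1-AID on day 8, TRIM38 at 0.345, TRIM15 at -0.143, TRIM8 at -0.185 and TRIM47 at -0.042 in UHRF1-AID/DNMT1-AID on day 8, TRIM11 at -0.409, TRIM41 at -0.083, TRIM35 at -0.299, TRIM44 at -0.092, TRIM47 at -0.431 and TRIM65 at -0.353 in WT on day 6 against day 2, TRIM35 at -0.273, TRIM44 at -0.001, TRIM25 at -0.107 and TRIM47 at -0.179 in WT on day 8 against day 2, TRIM13 at 0.016 and TRIM47 at -0.061 in the change of UHRF1-AID/DNMT1-AID, TRIM59 at 0.026 and TRIM47 at -0.166 in UHRF1-AID/DNMT1-AID against UHRF1-AID, and TRIM47 at -0.025 against DNMT1-AID. With library size alone TRIM27 turned to 0.227 in WT on day 6 against day 2. Turned signs are counted only where a member was called in the main fit or in the alternative. Some, such as TRIM44 in DNMT1-AID on day 8, had no call in the main fit. The cause was not tested.

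Leaving out single libraries gave, against WT on day 2, 4 to 6 higher in UHRF1-AID, 1 to 3 higher in DNMT1-AID and 5 to 8 lower in UHRF1-AID/DNMT1-AID. On day 6 it gave 2 to 5 lower in UHRF1-AID and 0 to 1 lower in DNMT1-AID. The change had 0 to 2 higher in DNMT1-AID, where day 2 or day 8 replicates 1 and 2 were the libraries, and 5 to 9 in UHRF1-AID/DNMT1-AID, with 5 without its day 8 replicate 2. On day 8 UHRF1-AID against DNMT1-AID had 3 to 11 higher and 0 to 2 lower, and UHRF1-AID/DNMT1-AID 8 to 14 lower against UHRF1-AID and 7 to 11 lower against DNMT1-AID.

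Libraries with the same replicate number did not pair: the correlation of their deviations lay between -0.064 and 0.091. With a replicate block, UHRF1-AID/DNMT1-AID had 17 higher and 18 lower on day 8, DNMT1-AID 2 lower on day 6, and UHRF1-AID 1 lower against DNMT1-AID. Members with under 1 CPM rest on few reads.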
